A study of Rattus norvegicus with 8 samples.

Results

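The genes described here are 33 genes of the cell cycle and of DNA replication in rat intestinal epithelial cells, measured 1 hr after transforming growth factor beta 1 (TGF-beta-1). They were taken from a list of 40 gene symbols and include every one that the array annotation names, out of 9652 named genes and 17402 features in all. Of the list, Ccnd2, Cdk4, Rb1, Tyms, Ccnb1, Aurka and Cdk7 had no feature under these names. The members fall into 7 measured genes of G1 and the G1/S transition (of 10 listed), 14 of DNA replication and nucleotide supply (of 15), 9 of G2 and mitosis (of 11) and 3 kinases or cyclins with roles outside these phases (of 4). They lay on 41 features, with 25 members on 1 feature and 8 on 2.

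The RIE line comes from rat intestinal epithelium. RIE-Ras cells are RIE cells stably transfected with the plasmid pSV2-H-Ras(12V), whose human sequence encodes an H-Ras protein that is always active. Each line had 4 two-channel arrays, and each array set RNA of cells kept for 1 hr in TGF-beta-1 at 2 ng/ml against RNA of control cells of the same line. Whether RIE-Ras is 1 clone or a pool is not given in the sources used here, nor are the dyes of the channels.

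In epithelial cells TGF-beta-1 is known as an inhibitor of growth that holds cells in G1, through Smad proteins and inhibitors of cyclin-dependent kinases. E2F factors, held back by the retinoblastoma family until those kinases act, switch on the genes of the G1/S transition and of replication, while genes of G2 and mitosis are switched on later through promoter elements called CHR and CCAAT boxes. Most mRNAs of this group therefore go up and down with the share of cells in each phase. In a culture, fewer cells in a phase and less RNA per cell cannot be told apart.

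Promoter windows of RefSeq (assembly GRCr8, 250 bases before to 50 after the gene start) were matched for 27 of the 33 members. They were searched on both strands for 3 kinds of letters. The E2F letters were TTTGGCGC, TTTCGCGC, TTTCCCGC or TTTGCCGC, the CHR letters TTTGAA or TTCGAA, and the CCAAT box CCAAT; overlapping matches were each counted. E2F letters stood in 8 of the 27 windows (29.6%) against 2.14% of all 33469 windows, and in 6 of 12 windows of replication members. CHR letters stood in 11 of 27 (40.7%) against 19.7% of all windows, and in 6 of 7 windows of G2 and mitosis members. CCAAT stood in 19 of 27 (70.4%) against 37.5%. These counts describe letters, not bound sites. The windows of 4 members show the kinds of promoter in the group. Mcm5 and Cdk1 were below 0 on average in both lines after the centring described below. The arrays of Top2a and Pola1 did not overlap between the lines, for Pola1 only with its 2 features averaged. Matched letters are in capitals, and each window reads 5′ to 3′ along the strand of its gene.
Mcm5 (chr19:13488563-13488862, plus strand): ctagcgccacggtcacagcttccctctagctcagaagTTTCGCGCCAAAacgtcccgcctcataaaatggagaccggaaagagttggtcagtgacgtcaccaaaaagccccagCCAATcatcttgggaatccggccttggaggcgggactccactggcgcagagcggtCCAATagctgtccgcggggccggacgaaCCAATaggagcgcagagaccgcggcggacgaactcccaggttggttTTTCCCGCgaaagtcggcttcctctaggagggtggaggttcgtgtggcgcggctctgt
Cdk1 (chr20:19265043-19265342, plus strand): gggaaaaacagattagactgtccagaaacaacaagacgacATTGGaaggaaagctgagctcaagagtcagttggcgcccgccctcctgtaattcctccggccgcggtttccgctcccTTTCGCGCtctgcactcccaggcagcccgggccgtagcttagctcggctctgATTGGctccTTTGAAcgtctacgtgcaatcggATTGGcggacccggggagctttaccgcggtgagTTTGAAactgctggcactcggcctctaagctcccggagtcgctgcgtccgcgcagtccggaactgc
Top2a (chr10:84473044-84473343, minus strand): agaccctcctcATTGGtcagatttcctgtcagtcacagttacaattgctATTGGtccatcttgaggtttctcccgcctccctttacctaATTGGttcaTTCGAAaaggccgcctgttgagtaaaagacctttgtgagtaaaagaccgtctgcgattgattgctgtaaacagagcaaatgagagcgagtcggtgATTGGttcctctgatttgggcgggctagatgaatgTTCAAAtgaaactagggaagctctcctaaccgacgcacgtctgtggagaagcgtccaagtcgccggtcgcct
Pola1 (chrX:62342306-62342605, minus strand): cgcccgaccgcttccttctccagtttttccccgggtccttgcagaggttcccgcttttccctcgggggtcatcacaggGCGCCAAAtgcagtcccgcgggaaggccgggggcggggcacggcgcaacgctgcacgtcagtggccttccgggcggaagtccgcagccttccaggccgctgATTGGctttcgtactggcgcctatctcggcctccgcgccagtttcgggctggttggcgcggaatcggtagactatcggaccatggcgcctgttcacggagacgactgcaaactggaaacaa
The Mcm5 window held 3 matches to E2F letters, 2 of them overlapping in its first run of capitals, and 3 CCAAT boxes. That of Cdk1 held all 3 kinds, with 1 E2F match, 2 CHR matches and 3 CCAAT boxes. The Top2a window held 2 CHR matches and 4 CCAAT boxes without E2F letters, and that of Pola1 1 E2F match and 1 CCAAT box. The Bub1 window held no match of any kind.

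Every value below is the log2 of treated over control signal, and 0 means equal to the typical feature of its array: each array was centred on its median, which lay between 0.20 and 0.45 before centring. That shift matters for the sign of small ratios. Without it the median of the 33 members was 0.12 in RIE cells and 0.13 in RIE-Ras cells, so a member below 0 was below the other features of its array and not always below control in the deposited values. A ratio gives no expression level, so the arrays cannot show the cell type. Of 18 measured markers of intestinal epithelium, fibroblasts, endothelium and leukocytes, none passed the test in either line. The 5 epithelial markers had a median of 0.03 in RIE cells and 0.13 in RIE-Ras cells. Whether the arrays stem from separate cultures is not stated in the labels, and p-values therefore reflect only the spread among these arrays; the number of arrays limits the precision. Some arrays stood apart. RIE-Ras replicate 1 correlated with the other RIE-Ras arrays, over all features, with r from -0.05 to 0.14, and RIE-Ras replicate 4 with r from 0.11 to 0.14. RIE replicate 1 did so with its line with r from 0.08 to 0.27, whereas RIE replicates 3 and 4 correlated with r = 0.69. Over the 33 members alone, RIE-Ras replicate 1 correlated with the other RIE-Ras arrays with r from 0.67 to 0.79. Over the same members RIE replicates 3 and 4 correlated with r = 0.77. The other pairs of RIE arrays did so with r from -0.02 to 0.25, so they hardly shared which members were low.

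Tests were moderated tests of limma in one fit of all 8 arrays, with p-values adjusted by Benjamini-Hochberg over all 17402 features. No member passed an adjusted p of 0.05 in either line or between the lines, so the values that follow describe directions and sizes, not established changes. That count depended on the scale: on the values as deposited, 5 of 33 members passed in RIE and 7 in RIE-Ras cells, all higher, where 22.8% and 20.6% of all features passed as higher. With weights estimated for each array, 18 of 33 members passed in RIE cells, all lower, where 22.2% of all features passed as lower and 15.4% as higher, in a fit that gave RIE replicate 3 a weight of 8.70 against at most 1.10 for any other array. In RIE cells 27 of the 33 members had a mean below 0, against 50.8% of all features. Their median was -0.24 against -0.01 over all features. In RIE-Ras cells 21 members were below 0, against 49.2% of all features, with a median of -0.16 against 0.01. Most genes of the G1/S transition and of replication had means below 0 in both lines after centring. Ccna2, Mki67, Top2a and Bub1 of G2 and mitosis lay below 0 in RIE and above 0 in RIE-Ras cells. So did Mcm2, Mcm3, Mcm7 and Ccnh of the other subgroups. As deposited, the RIE means of Ccna2, Mki67 and Top2a were above 0, at 0.34, 0.18 and 0.0062. That of Bub1 stayed below 0, at -0.12.

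**Figure D1:**
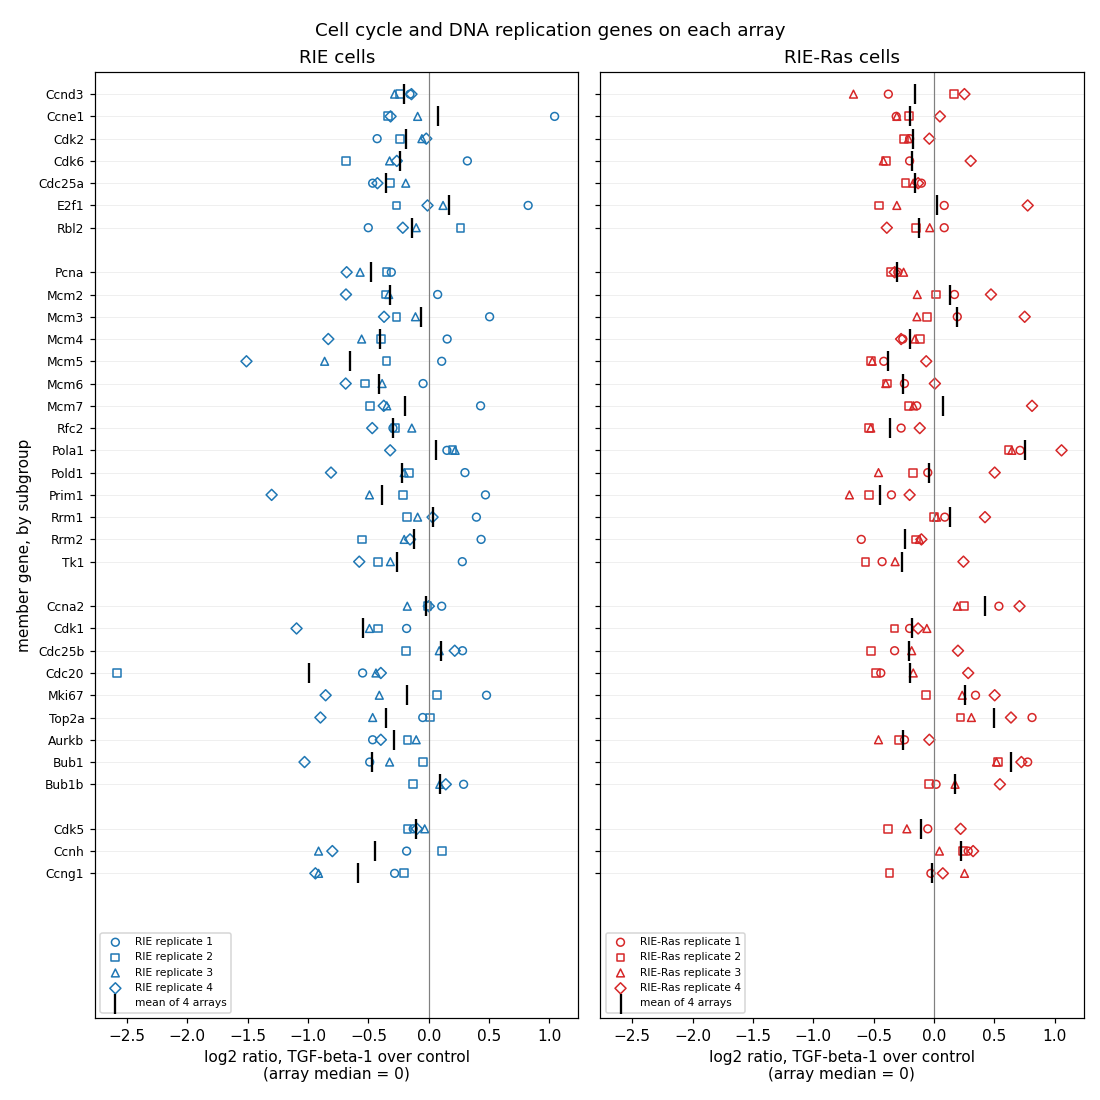
Each point is the log2 ratio of treated over control on one array (horizontal axis, array median at 0) for one member gene (rows, in the order G1/S, replication, G2 and mitosis, others), with RIE cells on the left, RIE-Ras cells on the right and a black bar at the mean of 4 arrays. Most RIE bars lie left of 0, and Bub1, Top2a, Ccna2 and Pola1 lie right of 0 on all 4 RIE-Ras arrays; without centring the members' median was above 0 in both lines.

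In RIE cells 0 of 33 members passed, where 0.0747% of all features did, and the smallest adjusted p of a member was 0.111. At an unadjusted p of 0.05, 12 members were lower and 0 higher, while 11.5% of all features were lower and 6.03% higher. On all 4 arrays 12 members lay below 0 and 0 above, against 14.3% and 14.8% of all features. The 12 at the unadjusted level were 1 of G1/S, 5 of replication, 4 of mitosis and 2 of the others. The count of 12 changed with single arrays left out: it was 5 without RIE replicate 4 and 14 without RIE replicate 1. All features were not counted at the unadjusted level in those fits, so a shift of the whole fit cannot be told apart. The members' median was -0.17 without replicate 4 and -0.39 without replicate 1.

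In RIE-Ras cells 0 members passed, where 0.419% of all features did, and the smallest adjusted p was 0.0526. At the unadjusted level 3 members were lower and 4 higher, against 8.45% and 10.9% of all features. On all 4 arrays 10 members lay below 0 and 6 above, against 14.1% and 14.3%. Without RIE-Ras replicate 4 the unadjusted counts were 6 lower and 3 higher, and without replicate 1 they were 2 lower and 3 higher. The share of all features at that level was not counted in these fits. The members' median was -0.22 without replicate 4 and -0.12 without replicate 1.

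The members' median varied more between the arrays of a line than between the lines. It was 0.11, -0.24, -0.28 and -0.40 on RIE replicates 1 to 4 and -0.14, -0.21, -0.17 and 0.24 on RIE-Ras replicates 1 to 4. RIE replicate 1 and RIE-Ras replicate 4 were the arrays above 0. RIE replicate 1 had the highest value of its line for 20 of the 33 members and RIE replicate 4 the lowest for 16, and RIE-Ras replicate 4 had the highest for 25. What sets these arrays apart was not tested.

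**Figure D2:**
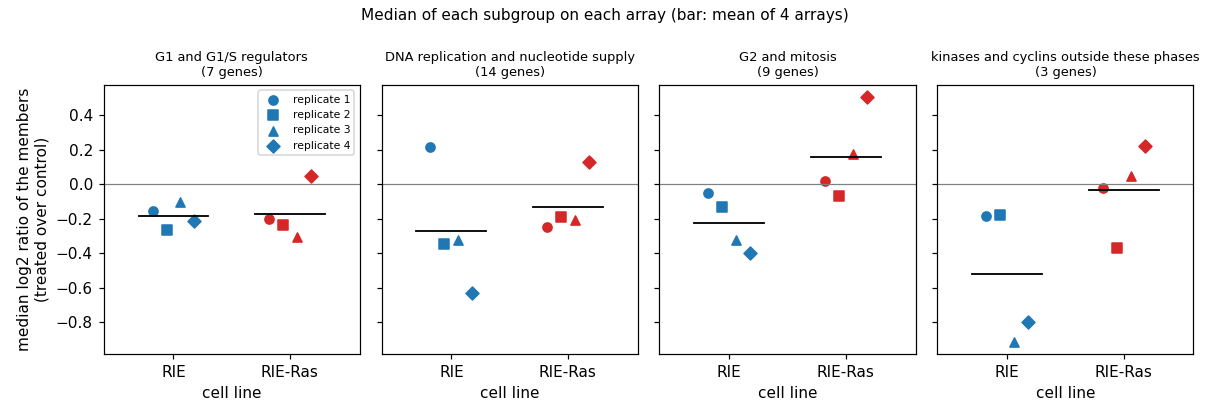
Each point is the median log2 ratio (treated over control, vertical axis) of the members of a subgroup on one array, for RIE (blue) and RIE-Ras cells (red), with marker shapes for the replicates and a bar at the mean of 4 arrays. The replication median spans -0.63 to 0.21 over the RIE arrays, and the G2 and mitosis median spans -0.40 to -0.05 in RIE and -0.07 to 0.50 in RIE-Ras cells, after centring.

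The 7 regulators of G1 and the G1/S transition had nearly the same median in both lines, -0.19 in RIE cells and -0.16 in RIE-Ras cells, with 5 and 6 of them below 0. Cdc25a, the phosphatase that activates Cdk2 at the start of S phase and which TGF-beta is known to repress in human mammary epithelial cells, had the largest negative mean of them in RIE cells. It stood at -0.47, -0.32, -0.19 and -0.43 on the RIE arrays and at -0.10, -0.24, -0.17 and -0.13 on the RIE-Ras arrays. All 8 values were below 0 and the lines overlapped. The means were -0.35 ± 0.09 (moderated SE, n = 4 arrays; limma adjusted p = 0.142) and -0.16 ± 0.09 (adjusted p = 0.386). With the values as deposited the RIE mean was 0.0057. Cdc25a was thus below the typical feature of its arrays, and whether it was below its control depends on the centring.

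Cdk2, the kinase of the G1/S transition, had means of -0.19 ± 0.10 in RIE cells and -0.17 ± 0.10 in RIE-Ras cells and was below 0 on all 8 arrays. Without centring both means of Cdk2 were above 0, at 0.17 and 0.11. Its partner cyclin E1, encoded by Ccne1, had a mean of 0.07 ± 0.22 in RIE cells, where RIE replicate 1 stood at 1.04 and the other RIE arrays lay between -0.34 and -0.09. In RIE-Ras cells its mean was -0.20 ± 0.22. Ccnd3 (cyclin D3) and Cdk6, which together phosphorylate retinoblastoma proteins, had RIE means of -0.21 ± 0.16 and -0.24 ± 0.18 and RIE-Ras means of -0.16 ± 0.16 and -0.18 ± 0.18. The transcription factor gene E2f1 was at 0.17 ± 0.23 and 0.03 ± 0.23, and ran from -0.27 to 0.82 in RIE and from -0.45 to 0.78 in RIE-Ras cells, with RIE replicate 1 and RIE-Ras replicate 4 at the top. Rbl2, which encodes the retinoblastoma relative p130 that holds E2F targets down in resting cells, had means of -0.14 ± 0.14 and -0.12 ± 0.14. None of these means passed the test, also without adjustment.

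Among the 14 genes of replication and nucleotide supply, 12 had a mean below 0 in RIE cells and 9 in RIE-Ras cells, with medians of -0.28 and -0.22. Pcna, the sliding clamp that holds DNA polymerases on their template, had the smallest SE of them. It stood at -0.31, -0.35, -0.57 and -0.68 on the RIE arrays and at -0.30, -0.35, -0.25 and -0.33 on the RIE-Ras arrays. All 8 values were below 0. The means were -0.48 ± 0.10 (limma adjusted p = 0.111, n = 4) and -0.31 ± 0.10 (adjusted p = 0.159), and the lines differed by 0.17 ± 0.14 (adjusted p = 0.716). Rfc2, a subunit of the clamp loader that places Pcna on DNA, stood at -0.30, -0.28, -0.14 and -0.47 in RIE and at -0.27, -0.54, -0.52 and -0.12 in RIE-Ras cells. It too was below 0 on every array, with means of -0.30 ± 0.11 (adjusted p = 0.228) and -0.36 ± 0.11 (adjusted p = 0.143), and the lines overlapped. The means of Pcna without centring were -0.12 in RIE and -0.02 in RIE-Ras cells, and those of Rfc2 were 0.06 and -0.08.

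The MCM helicase, a ring of 6 related proteins that is loaded on origins in G1 and unwinds DNA in S phase, was measured in full. Mcm5 had the lowest RIE mean of the 6 genes and the widest spread: 0.11, -0.35, -0.86 and -1.51 on the RIE arrays and -0.42, -0.52, -0.51 and -0.06 on the RIE-Ras arrays. Its RIE values covered those of RIE-Ras cells, and the means were -0.65 ± 0.23 (limma adjusted p = 0.211, n = 4) and -0.38 ± 0.23 (adjusted p = 0.404). Without RIE replicate 4 the RIE mean was -0.37, and that of Mcm4 was -0.27. Mcm4 stood at 0.15, -0.39, -0.56 and -0.83 in RIE and at -0.26, -0.11, -0.16 and -0.27 in RIE-Ras cells, with means of -0.41 ± 0.15 (adjusted p = 0.224) and -0.20 ± 0.15. Mcm6 stood at -0.05, -0.53, -0.39 and -0.69 in RIE and at -0.24, -0.39, -0.40 and 0.01 in RIE-Ras cells, with means of -0.41 ± 0.13 (adjusted p = 0.176) and -0.26 ± 0.13. In all 3 genes RIE replicate 1 was the highest and RIE replicate 4 the lowest of the line, and the lines overlapped. The means of Mcm5 without centring were -0.30 in RIE and -0.09 in RIE-Ras cells. Those of Mcm4 were -0.05 and 0.08, and those of Mcm6 -0.06 and 0.03. The 2 features of Mcm6 lay 0.40 apart in RIE cells, with means of -0.62 and -0.21, and 0.33 apart in RIE-Ras cells. Their means had the same sign in each line, but on RIE replicate 1 they stood at -0.45 and 0.36.

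Mcm2, Mcm3 and Mcm7 were below 0 on average in RIE and above 0 in RIE-Ras cells. Their RIE means were -0.32 ± 0.15, -0.06 ± 0.19 and -0.19 ± 0.21, and their RIE-Ras means 0.13 ± 0.15, 0.19 ± 0.19 and 0.07 ± 0.21. RIE-Ras replicate 4 was the highest array for each of the 3, and for Mcm7 it was the one RIE-Ras array above 0, at 0.81 against -0.21 to -0.14 on the others. The 2 features of Mcm2 lay 0.73 apart in RIE and 0.47 apart in RIE-Ras cells with opposite signs in both lines, so the mean of Mcm2 hides a disagreement between its features. The 2 features of Mcm3 had opposite signs in RIE cells.

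The DNA polymerase alpha complex, which starts each new strand with a primer, did not share one value. Pola1, its catalytic subunit, stood at 0.15, 0.20, 0.22 and -0.32 on the RIE arrays and at 0.71, 0.62, 0.65 and 1.06 on the RIE-Ras arrays. The lines did not overlap. The RIE mean was 0.06 ± 0.13 and the RIE-Ras mean 0.76 ± 0.13, a fold of 1.69, with a limma adjusted p of 0.0526 (n = 4), and the lines differed by 0.70 ± 0.18 (adjusted p = 0.273). Both features of Pola1 were above 0 in RIE-Ras cells, at 0.47 and 1.05, but they had opposite signs in RIE cells, at -0.20 and 0.32. On each feature alone the lines overlapped. RIE arrays reached 0.44 and 0.79 on the 2 features, and RIE-Ras arrays went down to 0.24 and 0.61. Without RIE-Ras replicate 1 the RIE-Ras mean of Pola1 was 0.77, and without RIE-Ras replicate 4 it was 0.66. The difference ran from 0.57 without RIE replicate 4 to 0.75 without RIE replicate 3. Prim1, the primase subunit of the same complex, was at -0.38 ± 0.24 in RIE, running from -1.30 to 0.47, and at -0.45 ± 0.24 in RIE-Ras cells, where all 4 arrays were below 0. Pold1, the catalytic subunit of polymerase delta, was at -0.22 ± 0.20 and -0.05 ± 0.20.

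Means of the genes of nucleotide supply lay within 0.27 of 0. Rrm1 and Rrm2, the 2 subunits of ribonucleotide reductase, had RIE means of 0.04 ± 0.13 and -0.12 ± 0.16 and RIE-Ras means of 0.13 ± 0.13 and -0.24 ± 0.16. The Rrm2 mean in RIE-Ras cells included replicate 1 at -0.60, with the other arrays between -0.15 and -0.10. Tk1, the thymidine kinase of S phase, had means of -0.26 ± 0.17 and -0.27 ± 0.17, with RIE replicate 1 and RIE-Ras replicate 4 the arrays above 0.

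The 9 genes of G2 and mitosis had a median of -0.29 in RIE, with 7 below 0, and of 0.18 in RIE-Ras cells, with 5 above 0. The RIE-Ras median was 0.05 without RIE-Ras replicate 4, and without centring both medians were above 0, at 0.07 and 0.46. Bub1, a kinase of the spindle checkpoint that delays chromosome separation, had opposite signs in the lines on every array after centring. It stood at -0.49, -0.05, -0.32 and -1.03 in RIE cells and at 0.78, 0.53, 0.52 and 0.72 in RIE-Ras cells. The means were -0.47 ± 0.15 (limma adjusted p = 0.188, n = 4) and 0.64 ± 0.15 (adjusted p = 0.0872). The difference was 1.11 ± 0.22, a fold of 2.16, and did not pass after adjustment over all features (adjusted p = 0.228), the smallest adjusted p of a member in that comparison. It ran from 0.92 without RIE replicate 4 to 1.25 without RIE replicate 2. The RIE mean was -0.29 without RIE replicate 4 and -0.12 without centring. RIE replicates 2 and 3 were above 0 as deposited, where the array medians taken off were 0.38 and 0.37.

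Top2a, the topoisomerase that untangles sister chromatids before they separate, stood at -0.05, 0.01, -0.46 and -0.90 in RIE cells and at 0.81, 0.22, 0.31 and 0.64 in RIE-Ras cells. The lines did not overlap, and the RIE-Ras values were all above 0. The means were -0.35 ± 0.17 (limma adjusted p = 0.329, n = 4) and 0.50 ± 0.17 (adjusted p = 0.174), with a difference of 0.85 ± 0.24 (adjusted p = 0.311). The RIE mean was -0.17 without RIE replicate 4 and 0.0062 without centring. Ccna2, which encodes the cyclin A2 of S phase and G2, stood at 0.11, -0.01, -0.18 and 0.00 in RIE cells and at 0.54, 0.25, 0.19 and 0.71 in RIE-Ras cells. Here the RIE values sat around 0 and the RIE-Ras values above all of them, with means of -0.02 ± 0.12 and 0.42 ± 0.12 (adjusted p = 0.116) and a difference of 0.44 ± 0.16 (adjusted p = 0.402). Mki67, the gene of the proliferation antigen Ki-67, had means of -0.18 ± 0.20 and 0.25 ± 0.20, and its lines overlapped.

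Cdk1 and Cdc20 did not follow that pattern. Cdk1, the kinase that drives entry into mitosis, stood at -0.18, -0.42, -0.49 and -1.10 in RIE cells and at -0.20, -0.33, -0.06 and -0.13 in RIE-Ras cells. It was below 0 on all 8 arrays, with means of -0.55 ± 0.15 (limma adjusted p = 0.142, n = 4) and -0.18 ± 0.15, and the lines overlapped. Without centring its means were -0.19 in RIE and 0.10 in RIE-Ras cells. Cdc20, which activates the anaphase-promoting complex and is the target of the checkpoint in which Bub1 acts, stood at -0.55, -2.58, -0.44 and -0.40 in RIE cells and at -0.44, -0.48, -0.17 and 0.28 in RIE-Ras cells. Its RIE mean of -0.99 ± 0.34 (adjusted p = 0.204) rested on RIE replicate 2 and was -0.46 without that array. All 4 RIE arrays were below 0.

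Aurkb, a kinase of the chromosomal passenger complex, stood at -0.47, -0.18, -0.10 and -0.40 in RIE cells and at -0.24, -0.29, -0.46 and -0.04 in RIE-Ras cells. It was below 0 on every array and nearly the same in both lines, with means of -0.29 ± 0.11 (limma adjusted p = 0.240, n = 4) and -0.26 ± 0.11 (adjusted p = 0.251). Without centring both means were above 0, at 0.07 and 0.03. The checkpoint kinase relative Bub1b was at 0.10 ± 0.13 and 0.18 ± 0.13, above 0 in both lines, unlike Bub1. Cdc25b, the phosphatase that activates Cdk1, was at 0.10 ± 0.14 in RIE cells and -0.21 ± 0.14 in RIE-Ras cells, the one mitotic member with the lower value in RIE-Ras cells.

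Of the 3 members outside these phases, both cyclins had lower means in RIE than in RIE-Ras cells. Ccnh, the cyclin of the kinase that activates cyclin-dependent kinases and is part of transcription factor TFIIH, stood at -0.18, 0.11, -0.91 and -0.80 in RIE cells and at 0.28, 0.24, 0.05 and 0.32 in RIE-Ras cells. RIE replicates 3 and 4 were low and replicate 2 overlapped the RIE-Ras arrays, with means of -0.45 ± 0.17 (limma adjusted p = 0.234, n = 4) and 0.22 ± 0.17. The RIE mean was -0.29 without RIE replicate 3. The difference was 0.67 ± 0.24 (adjusted p = 0.395). Ccng1 (cyclin G1), a p53 target, stood at -0.28, -0.20, -0.91 and -0.94 in RIE cells and at -0.03, -0.37, 0.25 and 0.07 in RIE-Ras cells. RIE replicates 3 and 4 were again the low arrays, with means of -0.58 ± 0.16 (adjusted p = 0.148) and -0.02 ± 0.16 and a difference of 0.57 ± 0.23 (adjusted p = 0.440). Cdk5, a kinase best known from neurons, had a mean of -0.11 ± 0.11 in both lines.

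**Figure D3:**
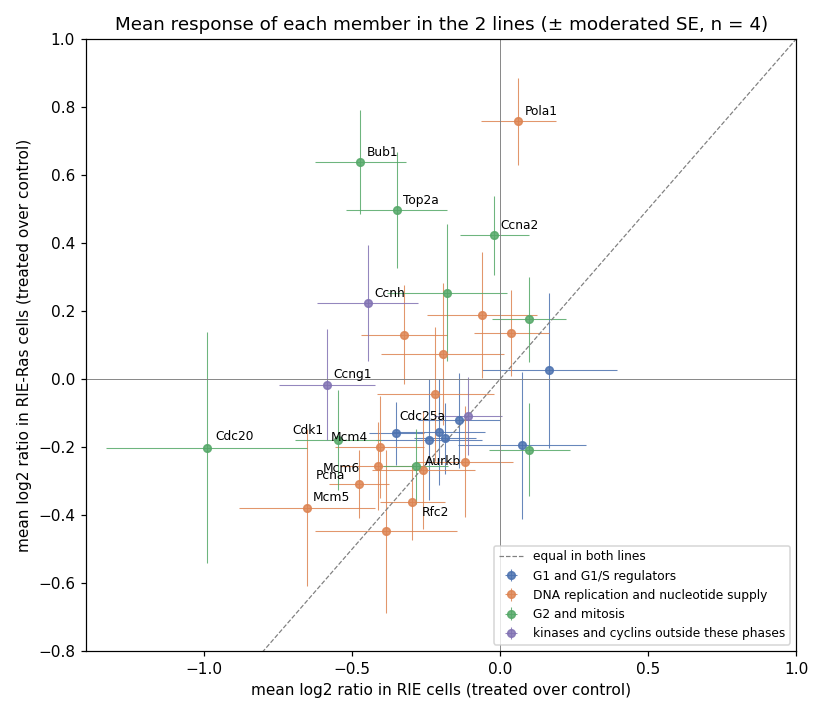
Each point is a member gene at its mean log2 ratio in RIE (horizontal axis) and RIE-Ras cells (vertical axis), treated over control after centring, with bars of 1 moderated SE (n = 4) and colours for the subgroups; the dashed line marks equal ratios. Names are given for the 15 members with an unadjusted p under 0.05 in a line or between the lines. Above the dashed line stand 25 of the 33 members, against 55.4% of all features, with Bub1 farthest from it. Without centring most points lie above 0 on both axes.

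Compared directly, the lines differed by a median of 0.17 over the 33 members (RIE-Ras minus RIE), against 0.04 over all features. The difference was above 0 for 25 members and below 0 for 7, against 55.4% and 44.6% of all features. No member passed the adjusted test, as was the case for all features (0% called). The smallest limma adjusted p of a member was 0.228. At an unadjusted p of 0.05, 6 members were higher in RIE-Ras cells and 0 lower, against 6.8% and 3.87% of all features. The 6 were Bub1, Top2a, Pola1, Ccnh, Ccng1 and Ccna2. For 4 members the RIE and RIE-Ras arrays did not overlap, with RIE-Ras cells higher (Bub1, Top2a, Pola1 and Ccna2), and for 0 with RIE-Ras cells lower, against 5% and 2.5% of all features. For Pola1 this held only with its 2 features averaged. By subgroup the median difference was 0.02 for G1/S, 0.17 for replication and 0.43 for G2 and mitosis. For G2 and mitosis it ran from 0.21 without RIE replicate 4 to 0.50 without RIE-Ras replicate 2, and 8 of the 9 members were higher in RIE-Ras cells. For replication it was 0.07 without RIE replicate 4 and 0.04 without RIE-Ras replicate 4, and for all members 0.07 and 0.06. The count at the unadjusted level was 3 without RIE replicate 3 and 10 without RIE replicate 1, and without RIE-Ras replicate 1 it was 4. The share of all features at that level was not counted in these fits.

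**Figure D4:**
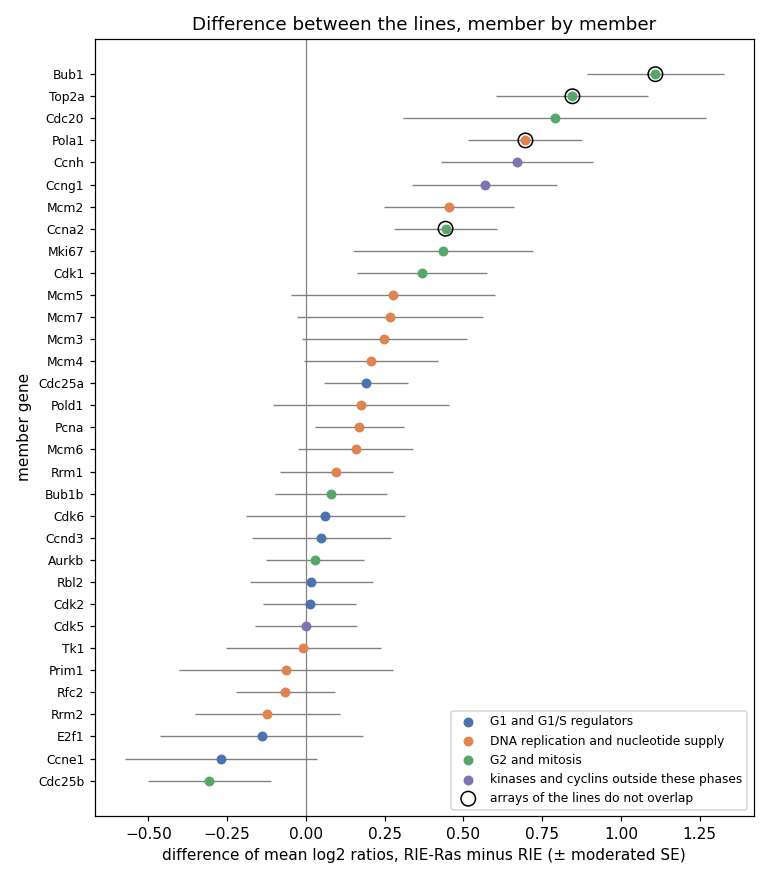
Each point is the difference of mean log2 ratios, RIE-Ras minus RIE (horizontal axis), of one member gene (rows, sorted), with a bar of 1 moderated SE and colours for the subgroups; circles mark the 4 genes whose arrays do not overlap between the lines. The differences run from -0.31 for Cdc25b to 1.11 for Bub1. Of the 33, 25 lie above 0 (20 without centring), where 55.4% of all features do after centring. Pola1 is circled on the mean of its 2 features, each of which overlaps between the lines.

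By sign, 19 members had a mean below 0 in both lines and 4 above 0 in both (E2f1, Pola1, Rrm1 and Bub1b). A further 8 were below 0 in RIE and above 0 in RIE-Ras cells (Mcm2, Mcm3, Mcm7, Ccna2, Mki67, Top2a, Bub1 and Ccnh), and Ccne1 and Cdc25b did the opposite. Of those 8, 6 had a RIE mean above 0 without centring, and 2 (Bub1 and Ccnh) stayed below 0 in RIE and above 0 in RIE-Ras cells. Over the 14 replication members the means of the lines correlated with r = 0.75, and over the 9 of G2 and mitosis with r = 0.18. These are correlations across genes, which share their arrays and are not independent, and are given as a description.

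Wider lists of 92 further genes, 65 of them measured, were drawn up for the same processes. The G1/S list also took in Cdk9, a kinase of transcription. Of the measured genes 0 passed the test in any comparison. In RIE cells 46 of the 65 were below 0 (median -0.12), where 50.8% of all features were. At the unadjusted level 18 were lower and 2 higher, against 11.5% and 6.03% of all features. In RIE-Ras cells 28 of them were below 0 (median 0.04), where 49.2% of all features were. At the unadjusted level 7 were lower and 13 higher, against 8.45% and 10.9%. The difference was above 0 for 52 of the 65 (median 0.17), where it was for 55.4% of all features. At the unadjusted level 10 were higher and 0 lower, against 6.8% and 3.87%. The arrays did not overlap for 7, higher in RIE-Ras cells, and for 0 lower, against 5% and 2.5%. The median of 30 further replication genes was -0.17 in RIE cells and -0.02 in RIE-Ras cells, and that of 24 further mitosis genes was -0.09 and 0.24.

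Named by their extremes, the genes of the further G1/S list ran in RIE cells from Cdk9 (-0.71) and Cks1b (-0.58) to E2f7 (0.15) and E2f4 (0.62). Cdk9 is a kinase of transcription elongation and not a G1/S regulator. Cks1b is a subunit of cyclin-dependent kinases. In RIE-Ras cells Cdk9 (-0.40) and Cks1b (-0.28) were again lowest, with Tfdp1 (0.27), an E2F partner, and E2f4 (0.35) highest. These are mean log2 ratios of 4 arrays, and E2f4 encodes an E2F that represses its targets in resting cells. Some rested on 1 array: E2f4 was at 0.39 without RIE replicate 4 and at 0.15 without RIE-Ras replicate 2, Tfdp1 at 0.13 without RIE-Ras replicate 4, and E2f7 ran from -0.12 without RIE replicate 4 to 0.42 without RIE replicate 1. Further replication genes ran in RIE cells from Dut (-0.67), which keeps uracil out of DNA, and the clamp loader gene Rfc3 (-0.63) to the origin recognition genes Orc2 (0.18) and Orc4 (0.20). In RIE-Ras cells they ran from the flap nuclease gene Fen1 (-0.55) and Dut (-0.51) to Orc2 (0.44) and Top2b (0.97), the topoisomerase related to Top2a. Without RIE-Ras replicate 4 Top2b was at 0.56, and without RIE replicate 1 Orc2 was at 0.10 in RIE cells. Among further mitosis genes, the ubiquitin-conjugating enzyme gene Ube2c (-0.76) and the kinase gene Plk1 (-0.74) were lowest in RIE cells and Cenpf (0.14), of the kinetochore, and Chek2 (0.31), a DNA damage kinase, highest. The RIE mean of Cenpf ran from 0.03 without RIE replicate 1 to 0.30 without RIE replicate 3. In RIE-Ras cells the passenger complex gene Birc5 (-0.58) and Plk1 (-0.51) were lowest, and the condensin gene Smc2 (0.70) and Cenpf (1.00) highest.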

How the data were processed

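The deposited values, 1 per feature and array, are log2 ratios of treated over control signal. Per the labels they are fold changes of the TGF-beta-1 treated over the control probe signal; the log2 scale was found from the values, since the fold each gives is a whole hundredth for 100% of values (tolerance 0.01 of that step). Dyes, scanner, background correction and normalization (not given in the sources used here) are unknown, and no dye swap is stated. A dye effect of a gene and its response therefore cannot be told apart within a line. It is unknown whether the authors centred the values.

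Features were named through the platform annotation, with symbols updated through the RefSeq gene table of GRCr8. Of 20500 features, 12750 had 1 symbol, 5 several and 7745 none. Of the symbols, 12720 came by gene ID and 7 by accession, and 23 were kept as given. Arrays were centred on their medians and features of a symbol averaged, which left 17402.

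R 4.3.3 and limma 3.58.1 (lmFit, eBayes) fitted 1 mean per line over all 8 arrays (6 residual and 2.71 prior degrees of freedom), with two-sided tests against 0 and of RIE-Ras minus RIE and Benjamini-Hochberg adjustment over all features at 0.05. The SE is the moderated one, from a spread that both lines share. The fit was tested on simulated data.

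The members and lists were chosen with earlier results of these data known. Every measured member is named; values on each array are given where the unadjusted p was under 0.05 in any comparison, and of each wider list the 2 highest and 2 lowest means per line are named. The promoters to print were chosen after values were seen. The labels do not say what a replicate number shared by the lines marks. Deviations of same-numbered arrays from their line means correlated with r = 0.07, -0.04, -0.02 and -0.05. Those of differently numbered arrays did so with r from -0.15 to 0.18. Such correlations cannot tell whether same-numbered arrays were handled together.

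The alternatives tried were quantile normalization, no centring, an equal spread on every array, each feature by itself, log2 ratios limited to 3, robust eBayes, array weights, an adjusted p under 0.10, RIE replicates 3 and 4 averaged, each line fitted alone, a replicate block and leaving out each array.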

Additional observations from a re-analysis of the deposited data

Results flagged for a closer look

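Some arrays lay far from the other 3 of their line, by the gap to the nearest array over the range of the 4. RIE replicate 2 stood at -2.58 for Cdc20, where the other RIE arrays lay between -0.55 and -0.40. For Mcm7, RIE replicate 1 was apart at 0.43 and RIE-Ras replicate 4 at 0.81. RIE replicate 4 was apart for Pola1 at -0.32, and RIE-Ras replicate 1 for Rrm2 at -0.60. RIE-Ras replicate 4 was also apart in the median of all 33 members, at 0.24, and in that of the replication members, at 0.13. These are 7 of 76 sets of 4 arrays tested (9.21%), and chance gives about 1 in 20. The sets share genes and arrays and are not independent.

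After centring, Bub1 was below 0 on every RIE array and above 0 on every RIE-Ras array, with a difference of 1.11 on the log2 scale. The limma test of that difference gave an adjusted p of 0.228. As deposited, Bub1 was above 0 on RIE replicates 2 and 3, and its RIE mean was -0.12.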

How the results depend on the processing

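Without centring, the shift of the whole array counts as response. The members' median was then 0.12 in RIE and, in RIE-Ras cells, 0.13, with 10 and 4 members below 0. The members that passed were 5 in RIE cells (Pola1, Rrm1, Ccna2, Cdc25b and Bub1b) and 7 in RIE-Ras cells (Mcm2, Pola1, Rrm1, Ccna2, Top2a, Bub1 and Bub1b), all higher, where 22.8% and 20.6% of all features passed as higher. Of members with an unadjusted p under 0.05 after centring, or that passed without it, the sign turned in RIE cells for Cdc25a (0.0057), Rfc2 (0.0598), Ccna2 (0.34) and Aurkb (0.0706), and in RIE-Ras cells for Aurkb (0.0269). Other members at weaker p turned with them, Top2a in RIE cells (0.0062) among them. With array weights 18 members passed in RIE cells, all lower, where 22.2% of all features passed as lower; that fit gave RIE replicate 3 a weight of 8.70 against 0.36 to 1.10 for the other arrays. With an adjusted p under 0.10, Pola1 and Bub1 passed in RIE-Ras cells (2 members), where 3.87% of all features passed. Under the other alternatives, leaving out each array included, 0 members passed in the comparisons that each was run for: the block only for the difference, and each line alone only for that line. With RIE replicates 3 and 4 averaged, 8 members were lower in RIE cells at an unadjusted p of 0.05, against 12 in the main fit. For the difference 3 were higher, against 6. The share of all features at that level was not counted in that fit. The members' median was then -0.21 in RIE cells and 0.10 for the difference. With each array left out in turn, the members' median ran from -0.39 to -0.17 in RIE cells, from -0.22 to -0.11 in RIE-Ras cells and from 0.06 to 0.25 for the difference. With a replicate block the difference kept its median of 0.17, with 0 members called and a smallest adjusted p of 0.512; it changed no call. Each line fitted alone gave a smallest adjusted p of 0.198 for RIE and 0.126 for RIE-Ras cells. The 4 arrays a line, spread from 0.24 to 0.55 (SD from the median absolute deviation), limit what can be called, and no intensities were used to filter dim spots.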

Other observations

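Mean ratios of the 65 measured genes of the wider lists ran with the length of the gene in the genome (GRCr8 gene span). Spearman's rho was 0.53 in RIE and 0.55 in RIE-Ras cells, longer genes being higher. Over the 33 members rho was 0.13 and 0.33, and over 9643 named genes 0.17 and 0.21. These are correlations across genes that share arrays, given as a description. The fibroblast collagen gene Col1a2 was at -1.71 in RIE (limma adjusted p = 0.0755) and -0.76 in RIE-Ras cells, with each of the 8 arrays below 0. It was chosen after its values were seen. The 5 measured fibroblast markers had a median of 0.04 in RIE cells and -0.33 in RIE-Ras cells, and 3 of them (Dcn, Pdgfra and Pdgfrb) were above 0 in RIE cells.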
